A study of Mus musculus with 4 samples.

Results

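A CD45 sort of KPC tumours let through some keratin-positive cells, which are described here. KPC is a mouse line of pancreatic ductal carcinoma, grown under the skin of C57BL/6 mice. A cell belonged to this set when it had at least 300 genes, at most 6% of unique molecular identifiers (UMIs) from mitochondrial genes, UMIs of at least 2 of the 4 keratin genes Krt8, Krt18, Krt19 and Krt7, and 0 UMIs of the 5 leukocyte genes Ptprc, Cd3e, Csf1r, Csf3r and Cd79a. The rule set no upper limit on genes, and it found 611 cells among 55090 deposited barcodes, of which 52914 met the limits on genes and mitochondrial UMIs. The cells were thus selected on detection of the keratins and absence of the 5 leukocyte genes, and those values are given as a description only.

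One library was untreated, and the other 3 were treated. ADU-S100, a STING agonist, was injected at 2 µg per tumour once, the agonistic anti-LTβR antibody 4H8 was injected intraperitoneally at 100 µg 4 times, and the combination received both. All 4 groups carried the same tumour line, and tumours were taken on day 14. Cells of 10 tumours were pooled in each group before sorting, so each group was 1 library with no replicate here, and differences between groups have no replicate check and no p-value. The study also ran another single-cell experiment with the same treatments, in other mice and with another version of the kit, which was not analysed here. The line is a cultured tumour line placed under the skin, not in the pancreas, and the sort was meant to keep leukocytes. Sets of 4 values follow the order untreated, STING agonist, LTβR agonist, combination, and sets of 3 the same order without untreated.

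Keratins 8 and 18, with keratin 19 and at times keratin 7, form the intermediate filaments of simple and ductal epithelium, and carcinomas of the pancreas usually keep them. STING is a sensor of cyclic dinucleotides whose activation leads to type I interferon, and interferon drives a broad set of antiviral genes and the MHC class I pathway in most cells, tumour cells included. The LTβ receptor is carried by epithelial, stromal and myeloid cells and activates NF-κB, including its non-canonical branch through Nfkb2 and Relb. CD45, encoded by Ptprc, is a leukocyte protein, and how these Ptprc-negative cells passed the gate was not tested.

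The libraries held 175, 151, 168 and 117 keratin-positive cells. Their share of the barcodes that met the limits was 2.12% in the untreated library (95% Clopper-Pearson interval 1.82 to 2.45), 1.03% with the STING agonist (0.873 to 1.21), 1.18% with the LTβR agonist (1.01 to 1.37) and 0.743% with the combination (0.615 to 0.89). The interval of the untreated library lay above those of the 3 treated libraries. Relative to untreated, the share was 0.487 times as large with the STING agonist (95% interval 0.392 to 0.604), 0.558 times with the LTβR agonist (0.452 to 0.689) and 0.351 times with the combination (0.278 to 0.443). The combination stood at 0.722 times the STING agonist share (0.567 to 0.918) and at 0.629 times the LTβR agonist share (0.498 to 0.796). These shares have leukocytes in the denominator and pass through a gate, so fewer carcinoma cells, more leukocytes and a different purity of the sort cannot be told apart. All intervals given here cover counting error only.

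Depth moved with the groups. Median UMIs per keratin-positive cell were 19949, 22158, 15338 and 9160, and median genes were 5032, 5345, 4532 and 3511. Leukocytes, here barcodes with at least 1 Ptprc UMI and fewer than 2 keratins, had medians of 5384, 3920, 4097 and 2541 UMIs. The combination was shallowest in both kinds of cell. The study's limit of 5000 genes per cell would have removed 91, 86, 64 and 16 of the keratin-positive cells, which is 52%, 57%, 38.1% and 13.7% of them. With that limit in place the combination share became 0.596 times the untreated one and 1.42 times the STING agonist one, so the order of these 2 treated libraries turned around. Thinning every barcode to 2000 UMIs before the rule gave 0.659 times untreated for the STING agonist and 0.484 times for the combination. Under 5000 UMIs were 22, 27, 15 and 25 of the cells.

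**Figure D1:**
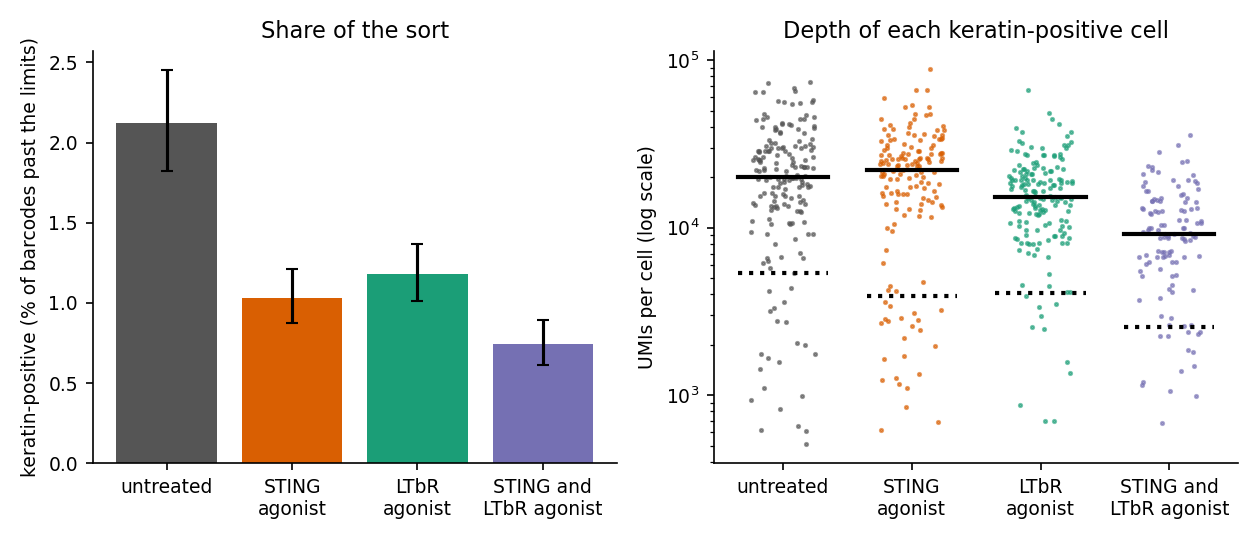
Left, keratin-positive cells as a percentage of barcodes that met the limits in each library, with 95% Clopper-Pearson intervals; the untreated library is highest at 2.12% and the combination lowest at 0.743%. Right, UMIs of each keratin-positive cell on a log axis, with the median as a solid line and the leukocyte median of the same library as a dotted line; the median of the cells lies above that of leukocytes in each library, and the combination has the lowest, 9160 UMIs.

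Cells just inside the rule had 2 keratins detected, which held for 57, 47, 69 and 59 of them, and the others had at least 3. Barcodes just outside it, with 1 keratin, numbered 22, 60, 33 and 59, and their median depths were 7852, 1995, 3111 and 3103 UMIs. Sox9, a transcription factor of ductal and progenitor epithelium that the rule did not use, was detected in 97.5%, 88.5%, 98% and 86.2% of cells with at least 3 keratins and in 64.9%, 70.2%, 78.3% and 76.3% of cells with 2. Depth differed as well, with medians of 25295, 23794, 18404 and 10854 UMIs in the first and 11264, 15356, 12126 and 8713 in the second, and its part in the detection was not tested. Sox9 was detected in 59.1%, 36.7%, 36.4% and 52.5% of barcodes with 1 keratin. A further 47, 44, 32 and 41 barcodes had at least 2 keratins together with UMIs of the 5 leukocyte genes, and 66%, 75%, 81.2% and 70.7% of those had a Sox9 UMI. Of the 611 cells, 10 carried a barcode sequence also found in another of the libraries.

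Levels are given in CPM, the summed UMIs of a gene per 1000000 UMIs of the keratin-positive cells of a library, which is not a level per length. Krt8 stood at 691, 636, 544 and 581 CPM, Krt18 at 532, 451, 338 and 371, Krt19 at 193, 286, 207 and 213 and Krt7 at 3.47, 3.52, 6.71 and 0. Krt8 was detected in 172, 149, 164 and 111 cells and Krt7 in 5, 5, 5 and 0. The leukocytes were taken with fewer than 2 keratins, so the definitions of both groups use these genes and their difference is a description. After thinning to 2000 UMIs, Krt8 was detected in 62.3%, 65%, 62.6% and 57.4% of the keratin-positive cells and in 0.352%, 0.223%, 0.187% and 0.126% of leukocytes. Thinning left out 13, 11, 5 and 9 keratin-positive cells and 1192, 2688, 2680 and 5266 leukocytes of lower depth. Unthinned, 1.38%, 0.702%, 0.476% and 0.423% of leukocytes had a Krt8 UMI.

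Genes of the ductal and basal epithelium that the rule did not use were present in all 4 libraries, and of those named here Msln varied most. Sox9 stood at 486, 520, 519 and 433 CPM, and Itgb4, the hemidesmosome integrin, at 218, 241, 239 and 239. Lad1, an anchoring filament protein, was at 127, 118, 124 and 138 CPM, and Msln, a surface protein of pancreatic carcinoma and mesothelium, at 145, 177, 87.9 and 122. Pdx1, the pancreatic transcription factor whose promoter drives Cre in KPC mice, was present at 22.8, 26.4, 20.5 and 29.5 CPM. At least 1 UMI of Sox9, Itgb4, Lad1 or Msln was found in 93.1%, 94%, 97% and 93.2% of the cells. The sum of the 16 epithelial identity genes was 1001, 1078, 987 and 949 CPM.

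Classical junction genes were at or near 0. Epcam had 3, 2, 1 and 1 UMIs, Cdh1, which encodes E-cadherin, had 10, 13, 2 and 1, and Cldn3, Cldn4 and Cldn7 had 0 in every library. Vim, the intermediate filament of mesenchymal cells, stood at 5450, 6277, 5014 and 4275 CPM, and Fn1, fibronectin, at 6211, 6817, 6562 and 8163. Zeb1, a repressor of E-cadherin, was at 175, 152, 174 and 173 CPM against 125, 92.6, 141 and 124 in leukocytes. Cells chosen for keratins thus held Sox9, Itgb4 and Lad1 along with mesenchymal genes, while Epcam and Cdh1 were near 0.

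Markers of other non-leukocyte cells were low. Fibroblast genes summed to 98.1, 100, 78.7 and 79.5 CPM, mostly from Col3a1 in 19, 16, 20 and 12 cells, while Pdgfra had 1, 0, 2 and 0 UMIs and Lum 0. Endothelial genes summed to 5.2, 6.74, 8.12 and 6.55 CPM, mesothelial genes to 0.495, 0.586, 0.706 and 2.46, and pericyte and smooth muscle genes to 6.19, 3.81, 3.18 and 5.73. Skin keratinocyte genes, of interest in a tumour under the skin, summed to 23.3, 37.8, 28.6 and 26.2 CPM, with Krt5, Krt15 and Krt1 at 0 UMIs and Krt14 in 18, 17, 17 and 4 cells. One Y-linked gene separated the cells from the leukocytes around them: Kdm5d, a histone demethylase, had 0, 0, 1 and 0 UMIs in keratin-positive cells against 22.7, 16, 21.4 and 19.8 CPM in leukocytes. The Y-linked genes Ddx3y, Uty and Eif2s3y were present in the same cells, Ddx3y at 80, 61.3, 87.2 and 73.7 CPM, Uty at 52.7, 41, 63.9 and 46.7 and Eif2s3y at 44.3, 39.9, 39.2 and 30.3.

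Leukocyte RNA in the keratin-positive cells was measured with 20 genes of leukocytes, macrophages and neutrophils that the rule did not use. Summed, these stood at 0.848%, 0.621%, 1.12% and 1.25% of their leukocyte level. The lower 95% bounds were 0.783%, 0.571%, 1.02% and 1.1% and the upper ones 0.918%, 0.674%, 1.22% and 1.42%. Most of that came from a single gene. Cd53, a tetraspanin of leukocytes, was at 117, 117, 139 and 115 CPM in the keratin-positive cells, in 94, 94, 95 and 49 of them, against 386, 593, 449 and 379 CPM in leukocytes. Tyrobp, a signalling adaptor of myeloid and NK cells, was at 1.73, 4.1, 2.47 and 3.28 CPM against 1242, 1599, 1228 and 1248. The source of the Cd53 reads was not tested. Without Cd53 the summed panel gave 0.202%, 0.192%, 0.267% and 0.562%, highest in the combination with or without that gene. With cells weighted equally the panel without Cd53 gave 0.694%, 0.64%, 0.433% and 0.783%. The median cell of the full panel was at 0.906% with the LTβR agonist and 0.855% in the combination.

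Neutrophil and B cell genes in the keratin-positive cells were highest where they were highest in leukocytes. Neutrophil genes such as S100a8 and S100a9 summed to 1.73, 12, 3.18 and 3.28 CPM in keratin-positive cells and to 989, 11262, 2310 and 2224 in leukocytes, with the STING agonist on top in both. B and plasma cell genes, mainly immunoglobulins, summed to 11.9, 6.16, 48.7 and 129 CPM against 1677, 1712, 10518 and 15168, highest with the combination in both. Macrophage genes summed to 20.3, 23.5, 25.4 and 57.3 CPM against 10477, 8480, 7749 and 8141, which is not 1 order. T and NK cell genes summed to 3.47, 3.22, 5.29 and 4.92 CPM against 679, 265, 665 and 453, and dendritic cell genes to 0.743, 1.47, 0.706 and 0 against 369, 306, 369 and 340, which did not share an order either. Summed, the panel without Cd53 stood at 398, 441, 145 and 113 CPM in cells with under 5000 UMIs and at 31.8, 43, 40.5 and 88 CPM in deeper ones. In the cells under 5000 UMIs, 45.5%, 40.7%, 33.3% and 20% had a UMI of the panel, and the 5 highest cells held 58.8%, 79.3%, 100% and 100% of its UMIs. In deeper cells 52.9%, 62.1%, 45.1% and 58.7% had one. The median over the cells under 5000 UMIs was 0 in each library.

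**Figure D2:**
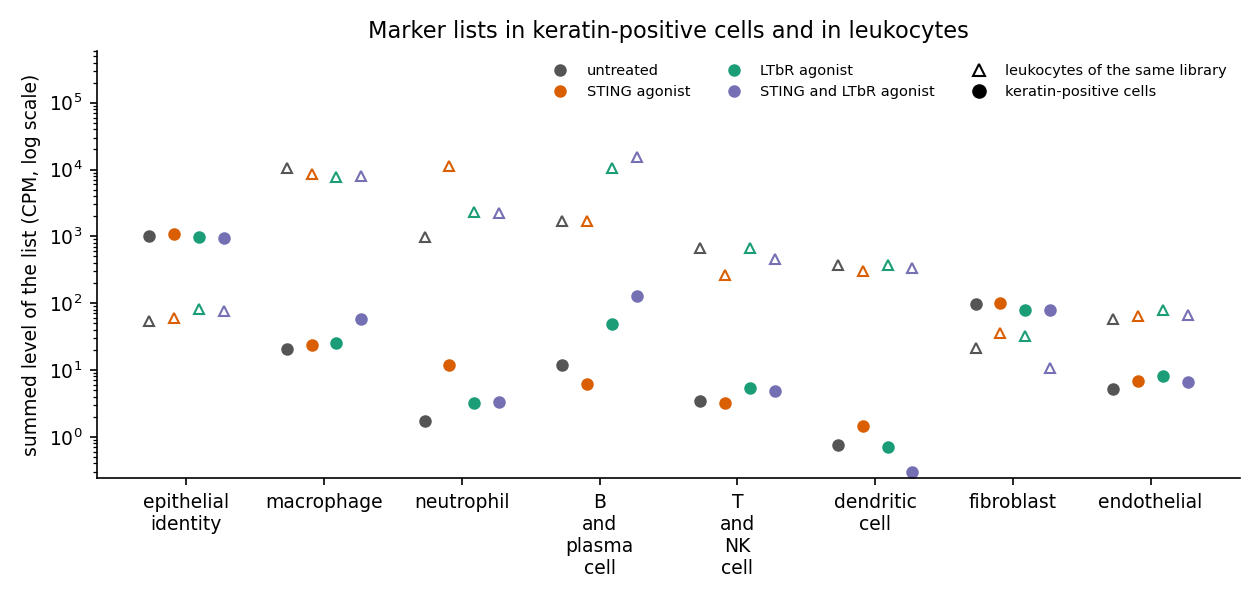
Summed level of each marker list in CPM on a log axis; filled circles are keratin-positive cells and open triangles are leukocytes of the same library, coloured by group. Epithelial identity genes lie between 949 and 1078 CPM in keratin-positive cells, leukocyte lists lie far below their leukocyte level, and the value drawn at the bottom edge is the 0 of the dendritic cell list in the combination.

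For each comparison, log2 ratios of CPM were computed over all genes with at least 200 UMIs in the 2 libraries together, and a gene was counted as risen or fallen when it was at least 2-fold apart. Values in parentheses after the 4 levels of a gene are its log2 ratio and, where given, the bounds of its 95% interval. With the STING agonist, 28 of 5918 genes were higher (0.473%) and 11 lower (0.186%) than in untreated. With the LTβR agonist, 47 of 5706 were higher (0.824%) and 17 lower (0.298%), and with the combination 33 of 4775 were higher (0.691%) and 11 lower (0.230%). Against the STING agonist the combination had 18 of 4320 genes higher (0.417%) and 36 lower (0.833%), and against the LTβR agonist 4 of 3995 higher (0.100%) and 7 lower (0.175%). The 95% interval alone, which covers counting error only, lay above 0 for 14.4% of the genes with the STING agonist, 22.5% with the LTβR agonist and 16.9% with the combination, and below 0 for 13.8%, 14.4% and 11.4%. The 3 comparisons with untreated share the untreated library, and the 2 of the combination with a single agent share the combination library, so their values are given side by side only. Taking the mean of CPM per cell, which weights cells equally, gave 32 higher and 34 lower between combination and STING agonist, so 48.5% of the called genes were higher there in place of 33.3%. With at least 3 keratins required, the combination had 16 genes higher and 16 lower than untreated.

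Interferon-stimulated genes were higher in the combination than in untreated, most by less than 2-fold. Of 33 genes in the list, 21 were measured, 20 had a log2 ratio above 0, and the 95% interval lay above 0 for 17 and below 0 for 0 (over all genes 16.9% and 11.4%). The median log2 ratio was 0.58, against 0.04 over all genes tested. In leukocytes it was -0.18 over all 33 genes of the list. Leukocyte medians of lists, here and below, cover every gene of the list, with no minimum of UMIs. Trim30a stood at 61.2, 58.6, 87.2 and 137 CPM, with a log2 ratio of 1.16 for the combination (95% interval 0.87 to 1.45). Zbp1, a sensor of nucleic acids that can start cell death, stood at 122, 160, 206 and 259 CPM, with a log2 ratio of 1.09 (0.88 to 1.3). Both rose past 2-fold, as did 0.691% of all genes. The order of the 4 libraries for Zbp1 ran from untreated through the single agents to the combination.

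Other members of the list moved the same way by less. Isg15, a ubiquitin-like modifier, was at 205, 217, 229 and 360 CPM, with a log2 ratio of 0.81 in the combination (0.64 to 0.98). Ifit3 was at 71.3, 56.3, 79.4 and 120 CPM (0.75, 0.45 to 1.04). The combination had the highest level of both genes, and with the STING agonist alone their log2 ratios were 0.08 and -0.34. Eif2ak2, the RNA-dependent kinase, had the 1 log2 ratio below 0, at 73, 60.7, 68.1 and 68 CPM. Against the STING agonist, Trim30a and Ifit3 were past 2-fold in the combination, by 1.22 and 1.09.

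A motif of 2 copies of GAAA with any 2 bases between them, the core of the element that interferon-activated factors bind, was looked up on both strands in the 250 bases before the start of each gene in RefSeq, with overlapping matches counted. Of 27025 promoters of this length, 821 (3.04%) held it, as did 10 of the 23 promoters found for the 33 genes of the list (43.5%). The 3 sequences shown are those of measured genes of the list that held the motif and had the largest log2 ratios in the combination. Capitals mark the matches, and each sequence reads 5′ to 3′ in the direction of the gene in build GRCm38.p6. Trim30a lies at chr7:104465194-104465443 on the minus strand, Isg15 at chr4:156200819-156201068 on the minus strand and Ifit3 at chr19:34583279-34583528 on the plus strand.
Trim30a: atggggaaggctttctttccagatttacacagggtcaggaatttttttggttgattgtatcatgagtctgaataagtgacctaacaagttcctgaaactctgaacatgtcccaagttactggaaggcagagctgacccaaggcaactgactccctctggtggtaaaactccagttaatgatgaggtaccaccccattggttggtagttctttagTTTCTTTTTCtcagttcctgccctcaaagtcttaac
Isg15: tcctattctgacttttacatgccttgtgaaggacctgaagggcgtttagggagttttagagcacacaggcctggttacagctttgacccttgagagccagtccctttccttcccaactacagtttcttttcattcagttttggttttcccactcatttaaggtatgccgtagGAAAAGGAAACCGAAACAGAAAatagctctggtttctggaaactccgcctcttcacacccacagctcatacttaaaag
Ifit3: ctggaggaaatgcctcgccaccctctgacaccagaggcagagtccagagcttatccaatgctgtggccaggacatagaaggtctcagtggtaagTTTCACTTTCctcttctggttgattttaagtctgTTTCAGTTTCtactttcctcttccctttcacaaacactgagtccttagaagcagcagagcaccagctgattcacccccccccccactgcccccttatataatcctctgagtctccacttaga
Trim30a held 1 match, Isg15 3 overlapping ones and Ifit3 2. A match is a description of letters, and binding was not measured.

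With the single agents the interferon list was less uniform. The LTβR agonist gave a median log2 ratio of 0.22 over 23 measured genes, with 14 intervals above 0, 0 below and 0 genes past 2-fold. The STING agonist gave a median of 0.05 over 24 genes, with 8 intervals above 0 and 4 below. Over all genes the shares above 0 were 22.5% and 14.4%, and those below 0 14.4% and 13.8%. At least 2-fold higher were 0.824% of all genes with the LTβR agonist and 0.473% with the STING agonist, and lower 0.298% and 0.186%. Ifitm3, a membrane protein that blocks viral entry, was at 1582, 2231, 1642 and 2100 CPM, and Usp18, which removes Isg15 from proteins, at 47.3, 27.6, 43.8 and 53.2. Ifitm3 was higher and Usp18 lower with the STING agonist, with log2 ratios of 0.5 and -0.78. Rsad2, an antiviral enzyme, was the 1 gene of the list past 2-fold with the STING agonist, at 17.6, 51.3, 28.2 and 31.1 CPM, but 1 cell held 94.3% of its UMIs there.

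**Figure D3:**
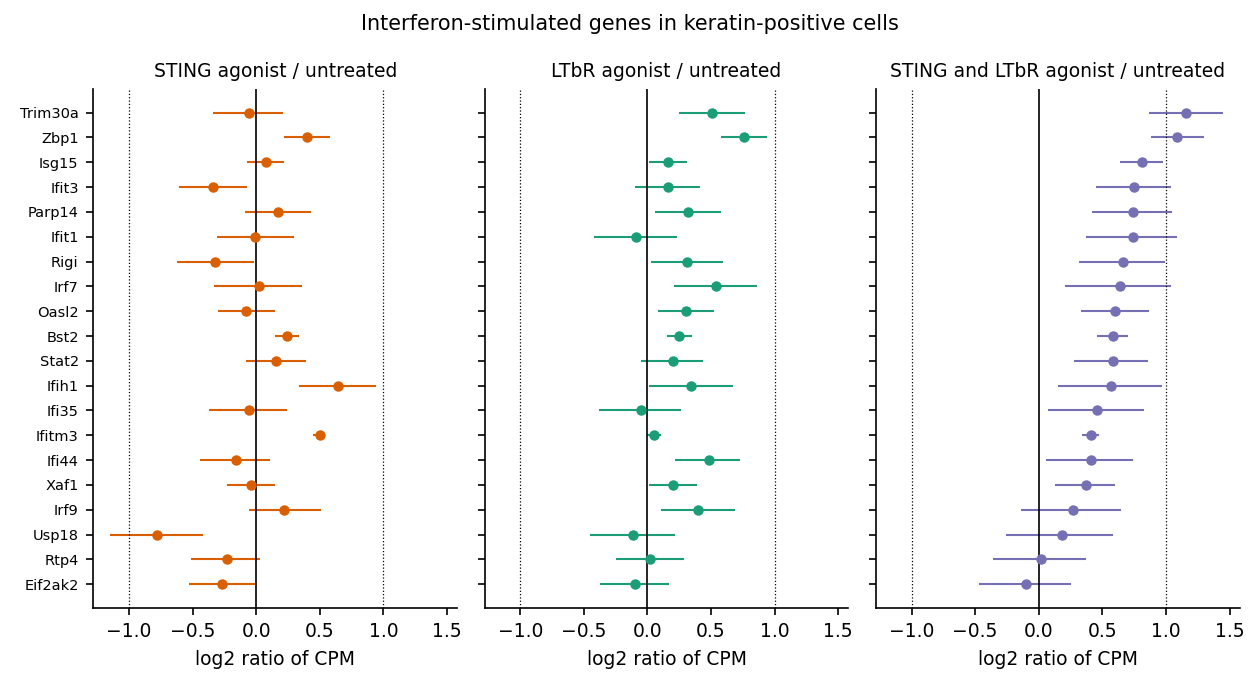
Log2 ratio of CPM to untreated for 20 of the 21 interferon-stimulated genes measured between combination and untreated, with 95% binomial intervals that cover counting error only; dotted lines mark 2-fold. In the combination panel all genes shown but Eif2ak2 lie above 0 and Trim30a and Zbp1 pass 2-fold, while the STING agonist panel is spread on both sides of 0.

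Per cell, the interferon list had medians of 3128, 4502, 3447 and 5036 CPM and lower quartiles of 1799, 2597, 2181 and 3032. The 5 highest cells held 15%, 17.6%, 15.9% and 17.4% of its UMIs. The summed level was 3877, 4769, 4420 and 5613 CPM, and leukocyte RNA at the share seen in the panel would give 1.18%, 0.746%, 1.34% and 1.1% of it. In cells with at least 5000 UMIs the median log2 ratio of the combination was 0.6, and with at least 3 keratins it was 0.33 over 18 genes.

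Genes of the interferon-γ response gave a median log2 ratio of 0.36 for the combination, over 13 measured genes of 20, with 10 intervals above 0 and 0 below, against 16.9% and 11.4% of all genes. With the single agents the medians were 0.21 for the STING agonist and 0.06 for the LTβR agonist. In leukocytes the medians of this list were -0.26, -0.23 and -0.29 for the STING agonist, the LTβR agonist and the combination. Gbp3, a GTPase of cell-intrinsic defence, stood at 107, 132, 114 and 179 CPM (0.73, 0.49 to 0.97 in the combination). Its relative Gbp2 was highest with the STING agonist, at 426, 692, 436 and 507 CPM (0.7, 0.61 to 0.79). The chemokine Cxcl9, which attracts T cells, was the 1 measured gene past 2-fold in the combination. Of all genes, 0.691% were at least 2-fold higher there and 0.230% lower. Cxcl9 was at 41.4, 8.21, 54 and 102 CPM (1.3, 0.95 to 1.64), from 13, 12, 19 and 18 cells. In leukocytes it was read at 559, 431, 375 and 444 CPM, and 1 cell held 25.8% of its UMIs in the combination.

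Nos2, the inducible nitric oxide synthase, was on the same list and passed 2-fold with each single agent. It was at 14.1, 92.3, 72.7 and 38.5 CPM in 19, 30, 36 and 16 cells, with log2 ratios of 2.7 for the STING agonist (2.3 to 3.14) and 2.36 for the LTβR agonist (1.94 to 2.81). With the STING agonist 39.4% of its UMIs were in 1 cell. The combination lay below both single agents.

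MHC class I genes, which present peptides to CD8 T cells, were all measured in the 3 comparisons with untreated. Of the 18 log2 ratios, 17 lay above 0 with the STING agonist, 15 with the LTβR agonist and 16 with the combination, with medians of 0.29, 0.11 and 0.38. The 95% interval lay above 0 for 13, 7 and 14 of the genes (all genes 14.4%, 22.5% and 16.9%) and below 0 for 0, 3 and 0 (13.8%, 14.4% and 11.4%). Medians of the same list in leukocytes were -0.29, -0.13 and -0.21. The peptide transporter gene Tap1 passed 2-fold in the combination, at 99.5, 130, 128 and 203 CPM (1.03, 0.8 to 1.26), and its partner Tap2 was at 46.3, 69.5, 66.4 and 85.2 (0.88, 0.52 to 1.23). The heavy chain gene H2-K1 was at 1394, 1841, 1606 and 1964 CPM, and B2m, the light chain, at 4096, 4909, 4574 and 4819. For both chains the untreated library was lowest, with log2 ratios in the combination of 0.49 and 0.23. Cd274, which encodes PD-L1, stood at 26.7, 29.9, 36 and 46.7 CPM in 47, 44, 48 and 29 cells.

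MHC class II genes present peptides to CD4 T cells and are turned on in some carcinoma cells by interferon-γ. Their summed level was 1178, 1624, 993 and 1565 CPM. All 6 measured genes had intervals above 0 with the STING agonist (median log2 ratio 0.48), 5 of 6 with the combination (0.42) and 0 with the LTβR agonist (-0.27), where 3 lay below 0, and none passed 2-fold. Of all genes, 14.4%, 22.5% and 16.9% had intervals above 0 in the 3 comparisons, 13.8%, 14.4% and 11.4% had them below, and 0.473%, 0.824% and 0.691% were at least 2-fold higher. Medians of the list in leukocytes were -0.32 with the STING agonist, -0.11 with the LTβR agonist and 0.23 with the combination. Cd74, the invariant chain, was at 530, 736, 454 and 704 CPM in 107, 97, 101 and 80 cells, highest with the STING agonist and the combination. Leukocytes held 24022, 19316, 22319 and 28496 CPM of the list. RNA at the panel share would give 17.3%, 7.39%, 25.2% and 22.8% of what was seen, and the panel without Cd53 4.12%, 2.28%, 6% and 10.2%. With the first of these subtracted, the medians against untreated were 0.62, -0.38 and 0.33.

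The class II level varied widely between cells of 1 library. Medians per cell were 266, 721, 220 and 535 CPM, the upper quartiles 1402, 2382, 1380 and 2789, and 80.6%, 88.7%, 81% and 89.7% of cells had a UMI of the list. With at least 3 keratins required, the median log2 ratio of the combination to untreated was 0.07, and with 5 more leukocyte genes required at 0 it was 0.77. Ciita, the switch of class II transcription, was at 12.6, 13.5, 12.4 and 24.6 CPM, too low for a ratio.

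**Figure D4:**
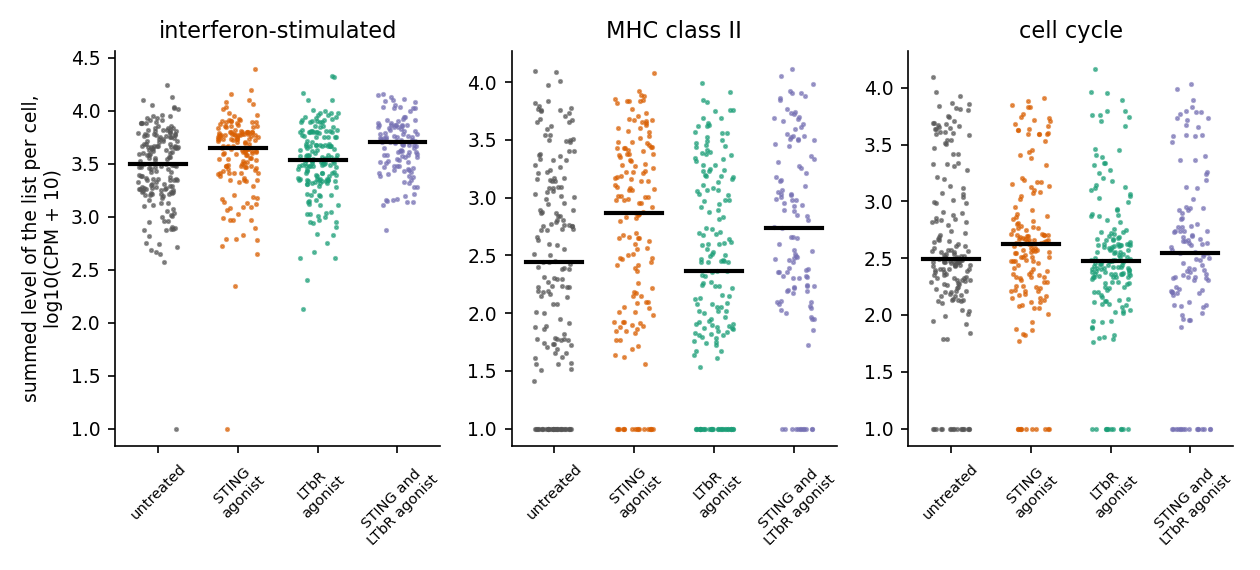
Summed level of 3 gene lists in each keratin-positive cell, as log10 of CPM plus 10, by library, with the median as a line; cells without a UMI of the list lie at the bottom. The interferon-stimulated list has medians of 3128, 4502, 3447 and 5036 CPM, and the MHC class II and cell cycle lists spread more widely, with medians from 220 to 721 and from 288 to 408 CPM.

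The receptors and signal genes of the agents themselves were present. Ltbr, the target of the antibody, was at 47, 51, 55.4 and 54.1 CPM in 91, 91, 83 and 38 cells, and Sting1 at 20.3, 23.5, 23.3 and 34.4 CPM in 48, 50, 47 and 31. Cgas, the enzyme that makes the natural STING ligand, had 24, 11, 13 and 9 UMIs. Of the 28 pathway genes, 19, 18 and 13 were measured in the comparisons with untreated and 1, 0 and 1 rose past 2-fold, as did 0.473%, 0.824% and 0.691% of all genes. Intervals lay above 0 for 5, 5 and 5 of the measured genes and below 0 for 0, 0 and 3. Over all genes 14.4%, 22.5% and 16.9% lay above 0 and 13.8%, 14.4% and 11.4% below. Nfkb2, the precursor of p52 in the non-canonical branch, rose in the combination, at 33.7, 37.8, 48 and 72.1 CPM (1.1, 0.69 to 1.5). Its partner Relb was at 54.7, 67.4, 62.8 and 73.7 CPM. Both were lowest in untreated and highest in the combination. Tnfaip3, which restrains NF-κB signals, rose with the STING agonist, at 23.3, 51, 29.6 and 30.3 CPM (1.13, 0.76 to 1.51), and Nfkbia, the inhibitor of the canonical branch, was at 301, 421, 306 and 218.

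Among the 28 chemokines and cytokines, Cxcl1, a neutrophil attractant, was at 205, 276, 87.9 and 97.5 CPM and fell past 2-fold with the LTβR agonist (-1.22, -1.43 to -1.01) and with the combination (-1.06, -1.36 to -0.79). Leukocytes had 1.75, 28.1, 6.18 and 5.02 CPM of it. It came from 43, 50, 29 and 20 cells, and in the combination 1 cell held 52.1% of its UMIs. Among cells with at most 5000 genes the LTβR agonist log2 ratio turned to 1.95. Il6, an inflammatory cytokine, was at 3.96, 65.7, 26.8 and 27.9 CPM in 12, 20, 11 and 8 cells and rose with the STING agonist (4.01, 3.32 to 4.88), where 1 cell held 24.1%. Tgfb1, a cytokine that restrains lymphocytes, was at 194, 194, 257 and 328 CPM (0.76, 0.58 to 0.93 in the combination). Il33, an alarmin, was at 45.6, 80.3, 30.7 and 25.4 CPM and was lower in the combination than with the STING agonist (-1.64, -2.25 to -1.12).

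Cxcl2, a chemokine for neutrophils, stood at 10.4, 29.9, 10.2 and 24.6 CPM in the keratin-positive cells, while leukocytes held 1716, 11951, 2850 and 3265 CPM. The panel share of those leukocyte levels would be 14.6, 74.2, 31.9 and 41 CPM, more than was read in each library. With Cd53 left out of the panel it would be 3.47, 22.9, 7.61 and 18.3 CPM, less than was read in each library. The lymphoid chemokines Ccl19, Ccl21a and Cxcl13 had 0 UMIs in all 4 libraries.

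Cell cycle genes were lower with either single agent. Of the 26 genes, 20 were measured with the STING agonist, with 14 intervals below 0, 0 above and a median log2 ratio of -0.5. With the LTβR agonist 17 were measured, with 14 below, 0 above and a median of -0.79. The combination had a median of -0.2 over 15 genes, with 3 below and 1 above. Intervals below 0 made up 13.8%, 14.4% and 11.4% of all genes in the 3 comparisons, and intervals above 0 14.4%, 22.5% and 16.9%. The list was lower in leukocytes too, with medians of -1.21, -0.53 and -0.65. Ube2c, which carries ubiquitin for mitotic exit, was at 126, 55.7, 69.5 and 130 CPM and fell past 2-fold with the STING agonist (-1.18, -1.43 to -0.93). Birc5, which encodes survivin, was at 60.9, 44.3, 27.5 and 53.2 CPM and fell past 2-fold with the LTβR agonist (-1.14, -1.53 to -0.77). Mki67, a marker of cycling cells, was at 161, 113, 91.8 and 135 CPM in 41, 33, 21 and 26 cells.

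A few cells carried many of these UMIs. The 5 highest held 34.3%, 30.4%, 49.8% and 43.5% of the list. Medians per cell were 298, 408, 288 and 344 CPM, an order unlike that of the sums of 1729, 1227, 1091 and 1534 CPM. With the mean of CPM per cell in place of the sum, the medians over genes were -0.19, -0.52 and -0.07 against untreated.

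Hypoxia and glycolysis genes were higher with the single agents by less than 2-fold. The LTβR agonist had 17 of 17 measured log2 ratios above 0, with 16 intervals above 0 and a median of 0.44. The STING agonist had 15 of 17, with 13 intervals and a median of 0.26, and the combination a median of 0.12 over 15 genes, with 7 intervals above 0 and 2 below. Of all genes, 14.4%, 22.5% and 16.9% had intervals above 0 in the 3 comparisons and 13.8%, 14.4% and 11.4% below. Medians of the list in leukocytes were 0.29 with the STING agonist, 0.12 with the LTβR agonist and 0.01 with the combination. Ero1a, an oxidase of the endoplasmic reticulum, was at 169, 224, 320 and 210 CPM (0.92, 0.78 to 1.07 with the LTβR agonist), and Ndrg1, a hypoxia-induced gene, at 385, 503, 589 and 418.

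Of the 24 stress response genes, 20, 19 and 19 were measured in the comparisons with untreated. Past 2-fold rose 1, 0 and 2 of these, against 0.473%, 0.824% and 0.691% of all genes. The STING agonist gave a median log2 ratio of 0.5, with 14 intervals above 0 and 3 below (all genes 14.4% and 13.8%). With the LTβR agonist the median was -0.08, with 6 above and 6 below (22.5% and 14.4%), and with the combination 0.16, with 9 and 5 (16.9% and 11.4%). Medians of the list in leukocytes were 0.53, 0.15 and 0.14. Hmox1, heme oxygenase, was at 30.5, 78.6, 18.4 and 40.1 CPM (1.36, 1.05 to 1.69 with the STING agonist). The heat-shock gene Hspa1a was at 50.3, 90.6, 64.9 and 129 CPM (1.36, 1.05 to 1.66 in the combination), and Hspa1b at 38.6, 63, 68.8 and 117 (1.6, 1.26 to 1.94). Hspa1a and Hspa1b are near-identical copies, so the split of reads between them is uncertain, and in the combination 1 cell held 19.7% and 32.2% of their UMIs. Trib3, a pseudokinase of the integrated stress response, fell with the STING agonist, at 51.8, 21.7, 33.2 and 31.1 CPM (-1.25, -1.66 to -0.87). Jun, an immediate early gene, was at 799, 1383, 1027 and 1081 CPM, highest with the STING agonist (0.79, 0.73 to 0.86).

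Of the 24 driver and growth factor signalling genes, 16 were measured in each comparison with untreated, and none was past 2-fold, where 0.473%, 0.824% and 0.691% of all genes were higher and 0.186%, 0.298% and 0.230% lower. Their intervals lay above 0 for 4, 6 and 6 and below 0 for 5, 4 and 2. Over all genes 14.4%, 22.5% and 16.9% lay above 0 and 13.8%, 14.4% and 11.4% below. Trp53 was at 115, 100, 85.8 and 110 CPM, and Cdkn2a had 0 UMIs in all libraries. Egfr, a growth factor receptor, was at 53.5, 67.4, 85.8 and 106 CPM (0.98, 0.66 to 1.3 in the combination), and the transcription factor gene Myc at 89.4, 66, 63.5 and 46.7 (-0.93, -1.37 to -0.53). Of the 6 EGFR ligands in the list, Areg was at 1886, 1873, 1752 and 2232 CPM, Hbegf at 701, 594, 670 and 877 and Btc at 268, 221, 317 and 235, in no shared order. Tgfa was at 10.9, 16.7, 12.4 and 9.83 CPM, and Ereg had 1, 2, 2 and 1 UMIs and Epgn 0, 1, 0 and 1. Of the 18 cell death genes, 13, 12 and 10 were measured and none passed 2-fold, beside the same shares of all genes. Their intervals lay above 0 for 2, 2 and 1 and below 0 for 0, 0 and 0, with median log2 ratios of 0.07, 0.05 and 0.12. Mesenchymal genes had medians of 0.09, 0.13 and 0.06, and checkpoint and killing ligand genes of 0.09, 0.27 and 0.08. Serpinb9, an inhibitor of granzyme B, was at 45.3, 57.8, 41.7 and 50 CPM. Nt5e, which encodes the adenosine-producing CD73, was at 94.8, 69.8, 120 and 163 and rose past 2-fold between STING agonist and combination (1.22, 0.95 to 1.5).

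Of the invasion and basement membrane genes, Itga2, a collagen-binding integrin, rose with the LTβR agonist. It was at 25, 18.8, 96.4 and 62.3 CPM in 28, 31, 68 and 30 cells (1.94, 1.61 to 2.29). The matrix metalloprotease genes Mmp3 and Mmp7 had 0 UMIs, and Timp1, a metalloprotease inhibitor, was at 948, 1284, 943 and 1477 CPM. Vegfc, the lymphatic growth factor, rose with the LTβR agonist as well, at 19.1, 14.1, 74.1 and 52.4 CPM in 46, 26, 81 and 33 cells (1.95, 1.58 to 2.35). For both Itga2 and Vegfc the 2 libraries that had the antibody lay above the other two.

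The rule for named genes took those furthest apart among those with at most 20% of UMIs in 1 cell and at most 10% expected from leukocyte RNA, both read in the library where the gene was higher. With the LTβR agonist the largest rise was Tafa1, a secreted protein of the nervous system, at 8.42, 4.98, 136 and 41.8 CPM (3.99, 3.51 to 4.56), from 9, 4, 33 and 9 cells. Csmd1, a large membrane protein that limits complement, was at 242, 261, 1142 and 708 CPM in 54, 50, 104 and 73 cells (2.24, 2.14 to 2.34), and in leukocytes at 0.891, 6.2, 6.52 and 18.1 CPM. Prdm1, a transcriptional repressor, was at 12.1, 28.1, 57.5 and 40.1 CPM (2.24), and Sema3d, a guidance factor, at 20.8, 17.9, 84 and 28.7 (2.01). All 4 genes were highest in the LTβR agonist library.

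Lower with the LTβR agonist were Has1, a hyaluronan synthase, at 43.8, 107, 13.4 and 26.2 CPM (-1.69, -2.25 to -1.2), and Ccn2, a matricellular target of the YAP pathway, at 289, 205, 106 and 153 (-1.44, -1.63 to -1.26). Cavin2, a caveolar coat protein, was at 69.6, 56.9, 26.5 and 16.4 CPM (-1.39, -1.78 to -1.02). Gpr15lg, a chemoattractant peptide of epithelia, was at 45.3, 61.9, 18 and 18 CPM (-1.32), and the histone gene H4c4 at 128, 57.8, 42 and 44.2 (-1.61). H4c4 fell past 2-fold in all 3 comparisons with untreated, but among cells with at most 5000 genes its log2 ratios were 0.44 with the STING agonist, 0.05 with the LTβR agonist and -0.15 with the combination.

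With the STING agonist the largest rises by the rule were those of Gas1, Sema4a and Slpi. Il6 and Nos2 rose more than Gas1, but the rule left them out for the share of their UMIs in a single cell. Gas1, a hedgehog co-receptor, was at 11.1, 71.5, 38.5 and 38.5 CPM (2.67, 2.22 to 3.17). Sema4a, a semaphorin, was at 24.3, 123, 66.7 and 12.3 CPM (2.33, 2.02 to 2.67). Slpi, a protease inhibitor of epithelia and neutrophils, was at 89.6, 328, 53.3 and 105 CPM (1.87, 1.7 to 2.05). Slpi was abundant in leukocytes too, at 788, 1306, 2259 and 2814 CPM. Among cells with at most 5000 genes the log2 ratios were -0.7 for Gas1 and -1.11 for Slpi. Ifi27l2a, an interferon-induced gene, stood at 22.3, 64.2, 31.4 and 79.5 CPM (1.52), and leukocytes at 822, 682, 639 and 653. With at least 3 keratins required Slpi was at 0.97. Grik2, a glutamate receptor subunit, and Foxo3, a transcription factor, rose by 1.57 and 1.37. Lower were Htra1, a secreted serine protease, at 67.6, 21.1, 32.1 and 35.2 CPM (-1.67, -2.07 to -1.3), and Bcat1, Pard3b and Tnni1, with log2 ratios of -1.21, -1.36 and -1.15.

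In the combination Sod3, the extracellular superoxide dismutase, rose most by the rule, at 26.2, 46.9, 30 and 90.1 CPM in 36, 46, 29 and 32 cells (1.78, 1.38 to 2.18). Csmd1 (1.55), Hspa1a, Lsp1 (1.3) and Nav3 (1.26) were among the next. Cavin2 fell most (-2.05, -2.82 to -1.43), followed by H4c4 (-1.52), Ankrd1, another target of the YAP pathway (-1.35), Gpr15lg (-1.3), Nr4a2 (-1.25) and Sema3c (-1.11). Ankrd1 was at 82.2, 52.2, 45.5 and 31.9 CPM and Sema3c, a semaphorin, at 210, 262, 111 and 96.7. Untreated and STING agonist lay above the 2 libraries with the antibody for Sema3c and Cavin2.

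Lsp1 and Cotl1 are actin-binding proteins best known from leukocytes. Lsp1 was at 50.3, 51, 46.9 and 124 CPM in keratin-positive cells and at 254, 216, 233 and 225 in leukocytes, and the panel share of the leukocyte level would be 2.83 CPM in the combination. Cotl1 was at 61.2, 67.7, 71.7 and 146 CPM against 422, 326, 354 and 334. Both rose in the combination relative to the LTβR agonist, by 1.4 (1.05 to 1.75) and 1.03 (0.73 to 1.32), and the keratin-positive cells stayed below leukocytes for both.

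Between the combination and the STING agonist, Csmd1 (1.44), Gse1 (1.36), Kcnq5 (1.28) and Lsp1 (1.28) were the largest rises by the rule, and Sema4a (-3.28), Has1 (-2), Lsmem1 (-1.89) and Nfatc2 (-1.84) the largest falls. With at least 3 epithelial identity genes required, the log2 ratios of Csmd1 were 0.79 to untreated and 0.83 to the STING agonist, under 2-fold. Gse1 stood at 59.9, 32.8, 98.5 and 84.4 CPM and Kcnq5, a potassium channel, at 40.6, 38.1, 126 and 92.6. Between the combination and the LTβR agonist, H1f2, a linker histone, rose as well (1.01), and Sema4a (-2.4), Tafa1 (-1.69) and Sema3d (-1.53) were among the largest falls.

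**Figure D5:**
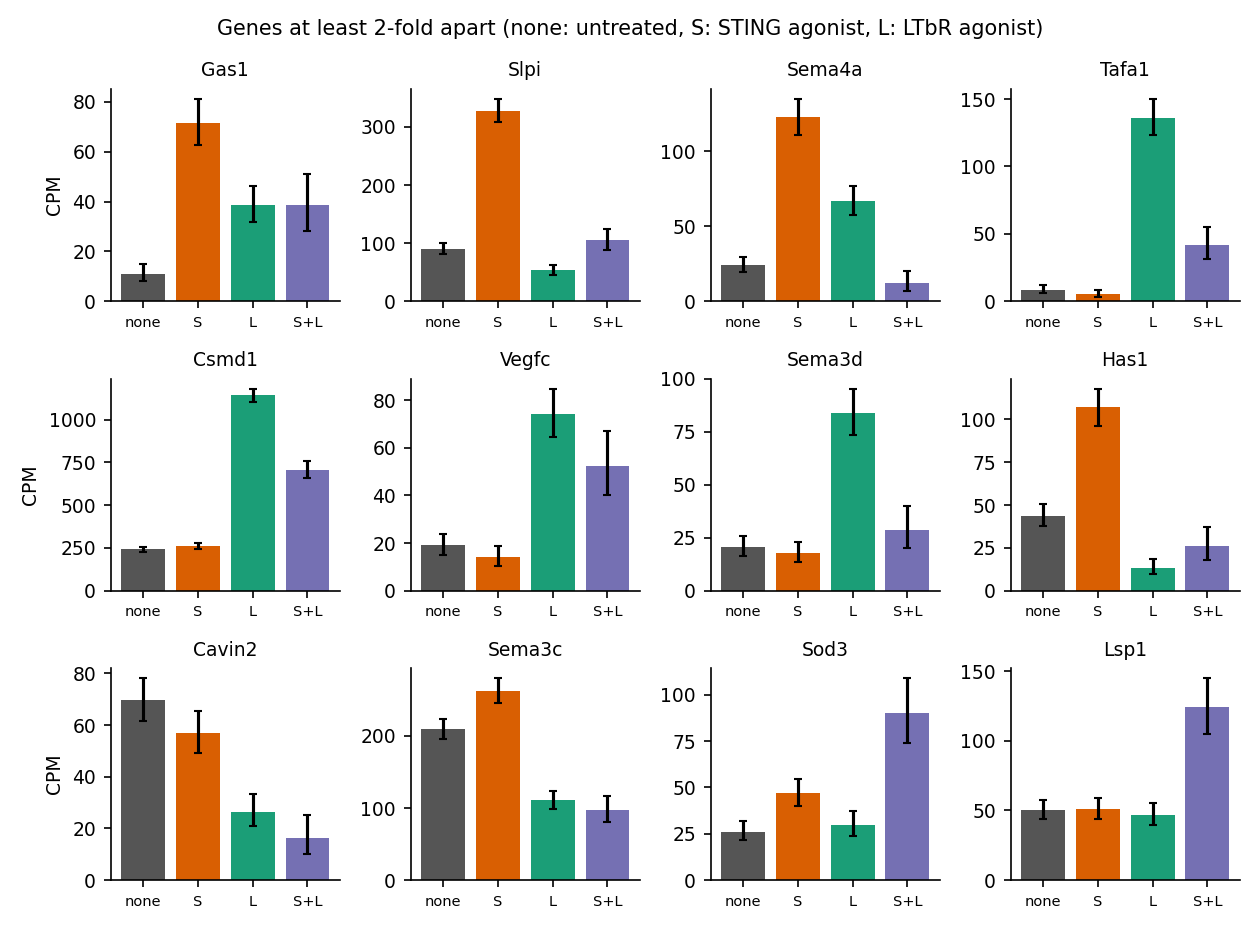
CPM in keratin-positive cells of 12 genes past 2-fold in at least 1 comparison, as bars from 0 with exact Poisson 95% intervals that cover counting error only; none is untreated, S the STING agonist, L the LTβR agonist and S+L the combination. Csmd1, Vegfc and Tafa1 are highest with the LTβR agonist, Gas1 and Slpi with the STING agonist, and Sod3 and Lsp1 with the combination.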

How the data were processed

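Libraries of 5′ single-cell RNA from live CD45+ cells were made with a 10x kit, 1 per treatment group. The deposited matrices hold whole-number UMI counts per gene and barcode over 33696 features, which the authors made with Cell Ranger. Version 7.1.0 and build mm10 stand in the submitters' processing notes, while the file headers give version 8.0.1. The counts were used as deposited, with no correction for ambient RNA.

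Groups were taken from the labels. The cells, gene lists and comparisons were chosen with earlier results of these data known. UMIs were summed over the keratin-positive cells of a library and scaled to CPM, and 0.5 UMI was added before log2 ratios. Intervals were 95% exact Poisson (CPM), exact binomial (ratios of CPM), Clopper-Pearson (shares) and log-normal (ratio of shares). No test across groups was run, since cells of 1 library are not replicates. Named genes were all lists, the 6 largest rises and 6 largest falls in each comparison with untreated, and 4 and 4 for the combination against each single agent. These needed at least 200 UMIs over the 2 libraries, a 2-fold change, an interval without 0, at most 20% of UMIs in 1 cell and at most 10% expected from leukocyte RNA (both in the library where the gene was higher), and left out immunoglobulin, T cell receptor, mitochondrial, ribosomal, haemoglobin, sex chromosome and predicted genes. Some genes that the lists or this rule hold are not reported here. Scrublet, run through scanpy 1.11.5, marked 0, 0, 1 and 0 barcodes and so did not work at its own threshold. Doublets were kept, and removing the highest scores was an alternative, which took 2, 4, 11 and 1 of the cells. The ratio step was tested on simulated counts. Python 3.11.15, numpy 2.4.6, scipy 1.17.1, pandas 2.3.3 and matplotlib 3.10.9 were used.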

Additional observations from a re-analysis of the deposited data

Results flagged for a closer look

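A few genes moved one way when an agent was given alone and the opposite way, past 2-fold both times, when it was added to the other agent. Each group was 1 library, so the differences were not tested, and they were picked among 3983 genes for the STING agonist and 4308 for the LTβR agonist after their values were seen. Adding the other agent changed the log2 effect of either agent by the same amount, because both differences come from the same 4 libraries.

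Sema4a, a semaphorin, was at 24.3, 123, 66.7 and 12.3 CPM, a difference of -4.73. These rest on 98, 419, 189 and 15 UMIs in 22, 31, 34 and 11 cells, with 1 cell of each library holding 20.4, 12.6, 12.2 and 20 percent of them. The STING agonist effect was 2.33 alone and -2.4 on top of the antibody (95% interval -3.31 to -1.68), and the LTβR agonist effect was 1.46 alone and -3.28 on top of the STING agonist (-4.17 to -2.58). Leukocytes held 88.6, 82, 113 and 99.5 CPM of it. Both single agents were high, and the combination was lowest.

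Dynap, a small membrane protein, was at 45.8, 112, 105 and 40.1 CPM in 55, 54, 58 and 20 cells, a difference of -2.66, with 1 cell of each library holding 11.9, 25.7, 30 and 20.4 percent of its UMIs. H1f4, a linker histone, was at 82, 40.7, 38.1 and 95 CPM, a difference of 2.32, with 42.2% of its UMIs in 1 cell of the combination. Nos2 differed by -3.61 and was picked for the LTβR agonist effect, with 2.36 alone and -1.25 on top of the STING agonist. The STING agonist effect on it was 2.7 alone and -0.91 on top of the antibody, the latter under 2-fold. In each library 1 cell held 33.3, 39.4, 16.5 and 29.8 percent of its UMIs. Sprr1a, a cornified envelope gene, was at 19.8, 56, 55.4 and 13.9 CPM in 16, 20, 27 and 6 cells and differed by -3.45, with 1 cell of each library holding 52.5, 41.4, 26.1 and 52.9 percent of its UMIs.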

How the results depend on the processing

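Each group was 1 library, so the limits are those of counting and of the choice of cells. The combination had the fewest and shallowest cells, and genes under 200 UMIs over 2 libraries were not measured. No paired analysis was possible because each group holds 1 library and no result comes from a test.

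With at most 5000 genes per barcode, the share in the combination was 0.596 times that in untreated, 0.869 times that of the LTβR agonist and 1.42 times that of the STING agonist, the last in the opposite direction to the reported 0.722. Thinning to 2000 UMIs before the rule gave 0.659 for the STING agonist and 0.484 for the combination against untreated, and 0.844 for the combination against the LTβR agonist. With at least 3 keratins the combination stood at 0.258 of untreated and 0.519 of the STING agonist. With at least 3 epithelial identity genes it stood at 0.255 of untreated, 0.522 of the STING agonist and 0.474 of the LTβR agonist. The causes were not tested.

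Genes past 2-fold numbered 39 (STING agonist), 64 (LTβR agonist) and 44 (combination) against untreated, and 54 and 11 for the combination against the STING and the LTβR agonist. The limit of 5000 genes gave 13, 31, 29 and 20 for the first 4, among 1326, 2035, 1663 and 1380 testable genes in place of 5918, 5706, 4775 and 4320. Of the reported genes 2, 17, 11 and 9 could still be tested there, and 0, 11, 5 and 6 stayed past 2-fold in the same direction. Cells thinned to 2000 UMIs gave 416, 377, 323, 282 and 135, a minimum of 50 UMIs 174, 275, 259, 258 and 141, and no minimum 4594, 5031, 3325, 3255 and 3618. For the combination against the LTβR agonist, 5 more leukocyte genes at 0 gave 24 and the mean of CPM per cell gave 20.

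Leukocyte RNA as the mean over cells was 1.44%, 1.13%, 1.32% and 1.5%. With the condition on the 5 leukocyte genes dropped and the rest of the rule kept, it was 7.23%, 5.54%, 2.79% and 5%. The panel without Cd53, chosen after seeing the data, gave 0.202%, 0.192%, 0.267% and 0.562%. Thinning to 2000 UMIs moved 15 of the 16 shares of leukocytes with a keratin UMI beyond their interval, to lower values.

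Among cells with at most 5000 genes the log2 ratio turned for Gas1 (-0.7), Slpi (-1.11) and H4c4 (0.44) with the STING agonist, and for H4c4 (0.05) and Cxcl1 (1.95) with the LTβR agonist. Of the other values of named genes under the alternatives, 47 fell under 2-fold in the same direction and 611 kept direction and side. The values that fell under 2-fold included Kcnq5 (0.37 with thinned cells), Bcat1 (-0.32 with the mean of CPM per cell), Cotl1 (0.86 at most 5000 genes) and Hspa1a (0.85 with 5 more leukocyte genes at 0).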
